A study of Homo sapiens with 24 samples.

Results

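The integrated stress response is described here through 39 genes: kinases that start it, the transcription factor ATF4 with its partner and downstream factors, feedback and effector genes, and the enzymes, transporters and tRNA synthetases that ATF4 is known to switch on. The members were taken by gene symbol, older symbols included, and each was represented by its brightest array feature. Of the 39 genes, 39 had a feature among the 20061 genes named on the array. After the dimmest 25% of genes were left out, 38 of the 39 remained among 15046 genes tested. The gene left out was STC2, a secreted glycoprotein, whose mean of 6.30 lay below the limit of 6.43 (log2 intensity).

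Cultures of SH-SY5Y, a human neuroblastoma cell line with neuronal features, were transfected with pCAGIG, a plasmid that drives its insert from the strong CAG promoter, and RNA was taken at 24 h. In V79_8x cells the plasmid carried the mutant FMR1 5' untranslated region with 79 CGG repeats under a mark of 8x, which the design text calls overexpression. V79 cells received the same 79-repeat region without that mark, V21 cells the wild-type region with 21 CGG repeats, and Mock cells the empty vector. The labels do not explain the 8x, and the share of cells that took up plasmid is not known, so in these bulk samples fewer responding cells and less RNA per cell cannot be told apart. Each group had 6 arrays, which the design text calls biological replicates, and each array is named by its experiment letter, B to G. The comparisons ask what the 8x condition, the repeat number and the presence of the region change against the other groups.

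In the integrated stress response, kinases that sense amino acid shortage, unfolded protein, haem shortage or double-stranded RNA phosphorylate the initiation factor eIF2. Most translation then falls, while the ATF4 message is translated more through its upstream open reading frames, so that ATF4 protein can rise without more ATF4 mRNA. ATF4 pairs with C/EBP factors on elements called CARE and switches on genes of amino acid supply, tRNA charging and, under lasting stress, cell death.

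The element was looked for in the members' own promoters, since it is what most of these genes are known to share. Promoter windows ran from 250 bases before to 50 bases after the annotated start (RefSeq, GRCh38.p14). A window was found for 35 of the 39 members, and NUPR1, PSPH, SHMT2 and SLC7A11 had no entry. The CARE letters TGATGNAAN, searched on both strands, occurred in 11 of these 35 members (31.4%), against 4.45% of the 27305 genes with a window. Many members were listed as known ATF4 targets, so a share above that of all genes was built into the choice. Genes with several annotated starts have several windows, and 3.61% of the 35116 windows held the letters. The 11 members with a match were ATF3, CEBPG, CHAC1, HERPUD1, ASNS, SLC7A1, SLC3A2, AARS1, GARS1, MARS1 and NARS1. Those of 6 members are shown with the element in capitals, written 5' to 3' on the strand of the gene.
ATF3: aaggtcaggaTGATGGAAGgctgtcatat
CEBPG: gcgcggcgtcTGATGCAACctgccggcaa
CHAC1: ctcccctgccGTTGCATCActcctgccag
HERPUD1: gacgcggcggGTTGCATCAgcccgtgccc
ASNS: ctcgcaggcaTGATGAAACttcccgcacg
AARS1: ttttctcgcaGTTGCATCAgccaagttag
The ATF3 stretch is chr1:212565206-212565234 (plus strand, element starting at -191 from the start), that of CEBPG chr19:33374061-33374089 (plus, -42) and that of CHAC1 chr15:40953251-40953279 (plus, -210). HERPUD1 has chr16:56931955-56931983 (plus, -177), ASNS chr7:97872458-97872486 (minus, -68) and AARS1 chr16:70289676-70289704 (minus, -188). In CHAC1, HERPUD1 and AARS1 the capitals are the element on the opposite strand. The full CRE letters TGACGTCA, bound by ATF and CREB factors, were found in 1 member, PPP1R15A (2.9%, against 2.25% of all genes). The core letters of the interferon-stimulated response element, TTTCNNTTT, occurred in 3 members, ATF5, ATF3 and WARS1 (8.6%, against 12.58% of all genes). In ATF3 this match and the CARE match lie in windows of different annotated starts, chr1:212614768-212615067 and chr1:212565157-212565456. WARS1, the tryptophan tRNA synthetase, is a well-known interferon-induced gene, and its match lies at chr14:100375383-100375411 (minus, -54). There too the capitals are the letters on the opposite strand.
WARS1: ttcagaagggAAACTGAAAgaaagagggg
A match is only a run of letters, and no match says only that these letters are not in the window.

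Before the results, 4 arrays have to be named, since they stood apart from the rest of their groups: V79 B, V21 B, V21 C and Mock D. Over all tested genes their median absolute deviation from the group was 0.24 to 0.28, against 0.07 to 0.15 on the other 20 arrays. Among the members, 31.6% to 57.9% lay more than 0.3 from the group on these 4, against 0% to 26.3% on the others. Over all tested genes the shares were 40.0% to 46.8% and 3.1% to 21.1%. No V79_8x array was among the 4. Calls in the comparisons of V79_8x are therefore given with and without them. Markers of the cell line were present: 7 of 8 noradrenergic neuroblastoma markers had a feature, and their summed level spanned 17.01 to 17.06 in V79_8x, 16.92 to 17.12 in V79, 16.63 to 16.98 in V21 and 16.78 to 17.04 in Mock (log2 of the sum). The sum of 6 mesenchymal markers spanned 17.59 to 17.81 in V79_8x, 17.66 to 17.88 in V79, 17.41 to 17.92 in V21 and 17.75 to 17.99 in Mock. These sums are carried mainly by their brightest gene, STMN2 (15.78 to 16.58 over the 24 arrays) for the noradrenergic list and VIM (17.36 to 17.95) for the mesenchymal list, and they show little of the dimmer markers. PHOX2A, a transcription factor of the noradrenergic list, read 9.32 to 10.18 on V79_8x D and E, V79 B and C, V21 F and G and Mock D and E, and 7.06 to 7.65 on the other 16 arrays. Each group thus held 2 arrays with high PHOX2A, in each case the 2 in the middle of the group's order of samples in the series. SEL1L, an unfolded protein response gene fitted below, was high on the same arrays (9.43 to 9.84, against 8.40 to 9.05 on the others). The split was therefore not confined to the noradrenergic list, and its cause was not tested. Of 5 glial markers 3 had a feature and only S100B passed the filter on dim genes. The 3 together spanned 8.82 to 9.03 in V79_8x, 8.80 to 8.92 in V79, 8.82 to 9.05 in V21 and 8.79 to 9.06 in Mock. No marker passed with all arrays, and PRRX1, a mesenchymal transcription factor, was lower in V79_8x without the 4 arrays (-0.25 against V79, adjusted p = 0.0395, -0.32 against V21, adjusted p = 0.00483, and -0.27 against Mock, adjusted p = 0.0102). The part of PHOX2A and PRRX1 in the members' results was not tested.

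In V79_8x cells NUPR1, a small stress-induced chromatin protein, and SLC6A9, the glycine transporter GlyT1, were higher than in each of the other groups. ATF3, a stress-induced member of the ATF family, was higher than in V21 cells, and XPOT, which exports tRNA from the nucleus, was lower than in V21 cells. ATF4, DDIT3, TRIB3, CHAC1 and ASNS, the usual readouts of the response, did not pass in any of the 6 comparisons. Passing means an adjusted p below the threshold of 0.05 in limma's fit over all genes with Benjamini-Hochberg adjustment. The 3 comparisons of V79_8x share the same V79_8x arrays, so their calls do not support each other.

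Against V79, the same repeat without the 8x mark, 2 of 38 members rose and 0 fell in V79_8x, where 1.15% of all 15046 genes were called. The median difference of the members was +0.06, against +0.01 for all genes tested. Against V21 3 members rose and 1 fell, with 2.86% of all genes called and medians of +0.13 for members and +0.03 for all genes. Against Mock 2 rose and 0 fell, with 2.2% of all genes called and medians of +0.05 for members and +0.01 for all genes. Without the 4 arrays the counts were 3 against V79, 4 against V21 and 3 against Mock, where 1.82%, 3.08% and 3.97% of all genes were called. The gene that joined was ATF3. The members' medians were then +0.03 in each of the comparisons with V79 and Mock and +0.02 against V21.

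**Figure D1:**
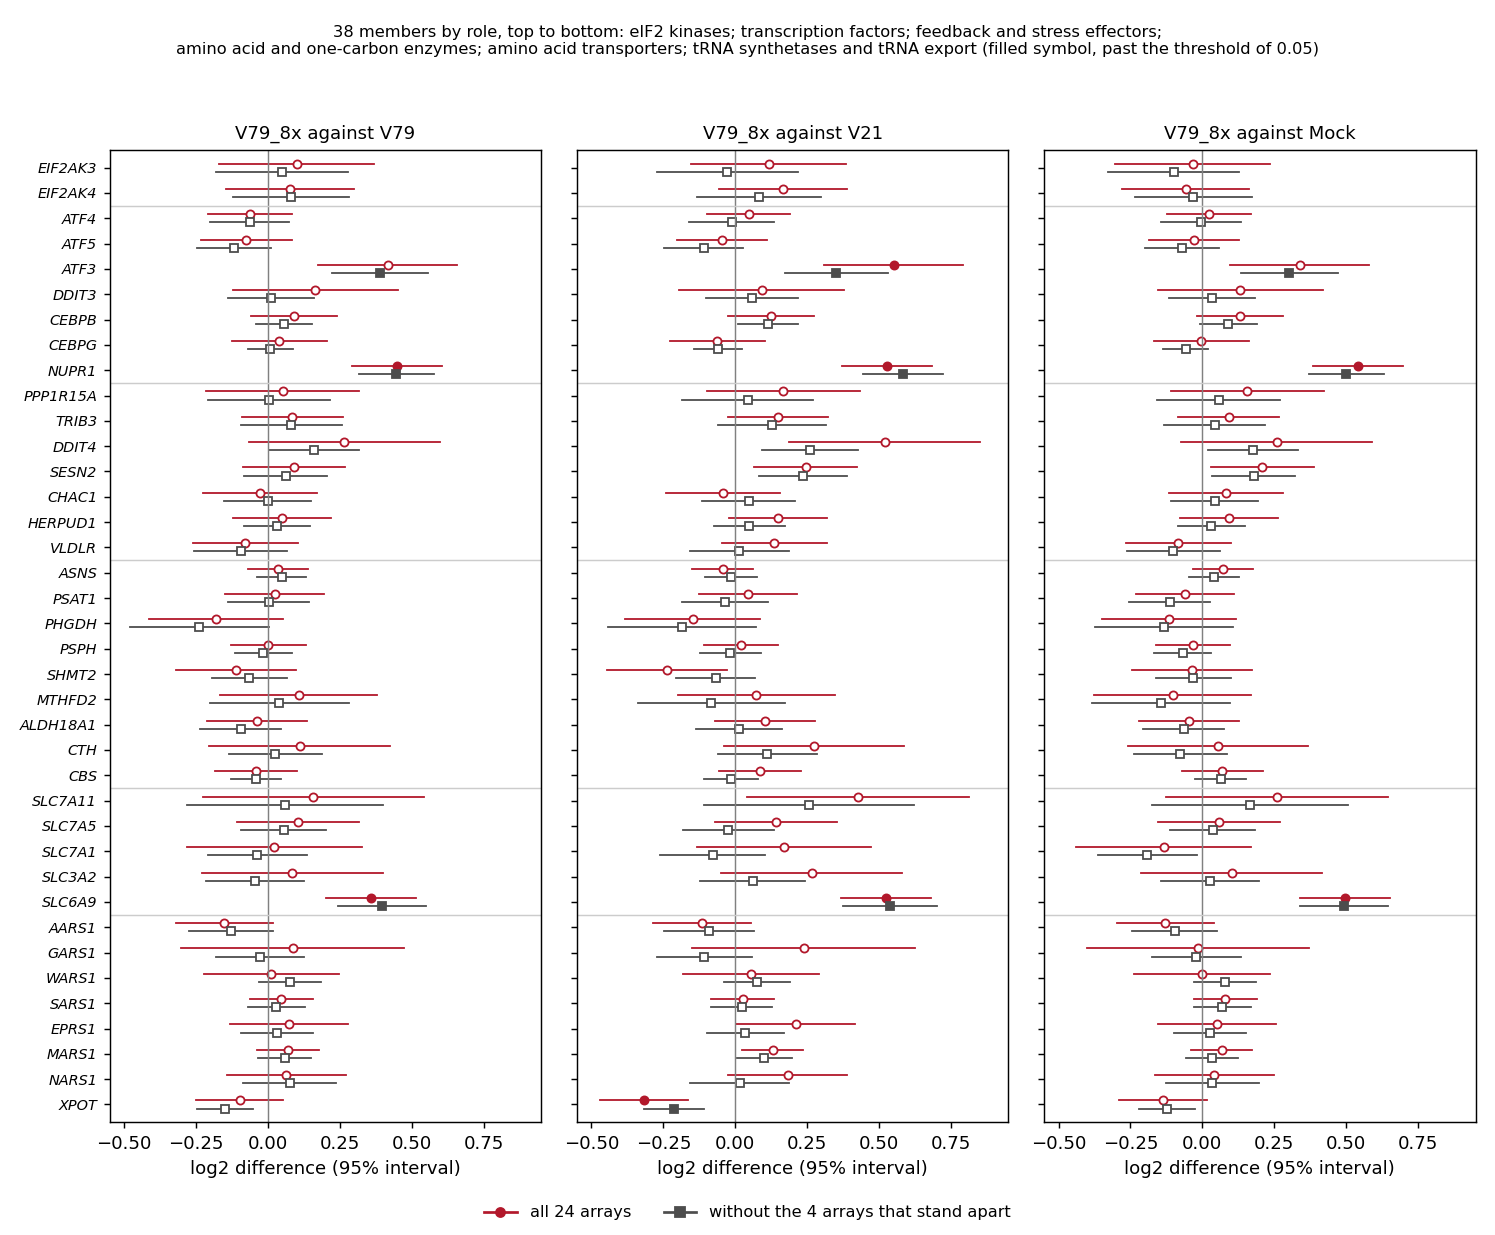
Log2 difference of V79_8x against V79 (left), V21 (middle) and Mock (right) for the 38 members tested, grouped by role from top to bottom, with 95% intervals from the fit; circles use all 24 arrays, squares leave out V79 B, V21 B, V21 C and Mock D, and filled symbols passed the threshold. NUPR1 and SLC6A9 lie to the right of 0 in all 3 panels, ATF3 is filled in all 3 only without the 4 arrays, XPOT is filled only against V21, and the intervals of ATF4, ASNS and CHAC1 include 0 throughout.

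The kinases among the members did not pass in any comparison. EIF2AK3 encodes PERK, which senses unfolded protein in the endoplasmic reticulum, and had a level of 8.31 ± 0.22 in V79_8x, 8.21 ± 0.24 in V79, 8.19 ± 0.27 in V21 and 8.34 ± 0.21 in Mock (log2, SD, n = 6). EIF2AK4 encodes GCN2, which senses uncharged tRNA, and lay at 10.72 ± 0.11 in V79_8x, 10.64 ± 0.14 in V79, 10.55 ± 0.27 in V21 and 10.78 ± 0.21 in Mock. For both the ranges of all 4 groups overlapped. A kinase outside the 39 moved strongly: EIF2AK2, which encodes PKR, a kinase activated by double-stranded RNA and itself induced by interferon. Its lowest, median and highest levels were 13.31, 13.58 and 13.72 in V79_8x, against 12.07, 12.20 and 12.41 in V79, 11.99, 12.26 and 12.39 in V21, and 11.90, 12.15 and 12.39 in Mock. Every V79_8x array lay above every other array. EIF2AK2 rose 2.56-fold against V79 (+1.35 ± 0.09 SE, adjusted p = 1.6e-10), 2.54-fold against V21 (adjusted p = 1.68e-10) and 2.63-fold against Mock (adjusted p = 8.98e-11). It was at +1.36 without the 4 arrays against V79 (adjusted p = 1e-09), +1.42 against V21 (adjusted p = 1.52e-09) and +1.44 against Mock (adjusted p = 3.83e-10). With and without them it was the only gene called against any of the 3 groups among 14 tested genes of the eIF2 machinery, a list that holds the remaining kinases, subunits of eIF2 and of its exchange factor eIF2B, and their regulators. The median of the list was +0.03 against V79, +0.10 against V21 and 0.00 against Mock. EIF2S3, a further subunit gene of the list, was not analysed here.

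Of the 7 transcription factors, ATF3 and NUPR1 passed in at least 1 comparison. ATF4 itself did not pass: its lowest, median and highest levels were 14.88, 15.01 and 15.14 in V79_8x, 15.03, 15.06 and 15.11 in V79, 14.77, 14.92 and 15.20 in V21, and 14.79, 15.03 and 15.15 in Mock. These ranges overlap throughout. The ATF4 difference was -0.06 against V79 (95% interval -0.21 to 0.08, adjusted p = 0.98), +0.05 against V21 (-0.10 to 0.19) and +0.02 against Mock (-0.12 to 0.17). These bounds concern ATF4 mRNA, and neither ATF4 protein nor eIF2 phosphorylation was measured.

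NUPR1 had the smallest p-value of any member against V79. On the arrays B to G it read 7.96, 7.71, 7.70, 7.65, 7.87 and 7.95 in V79_8x. The V79 arrays read 7.35, 7.38, 7.35, 7.36, 7.34 and 7.37, with an SD of only 0.015. The lowest, median and highest levels were 7.14, 7.24 and 7.58 in V21 and 7.06, 7.25 and 7.44 in Mock. Every V79_8x array was above every array of the other groups. NUPR1 rose 1.36-fold against V79 (+0.45 ± 0.08, adjusted p = 0.000671), 1.44-fold against V21 (+0.53 ± 0.08, adjusted p = 5.14e-05) and 1.46-fold against Mock (+0.54 ± 0.08, adjusted p = 3.77e-05). Without the 4 arrays it was at +0.45 against V79, +0.58 against V21 and +0.50 against Mock, again past the threshold. Its mean of 7.43 is near the limit of 6.43 for dim genes, and whether it was above background is not recorded in the values used, so the size of its fold is uncertain.

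ATF3 was highest in V79_8x, where its lowest, median and highest levels were 11.91, 12.05 and 12.14. The corresponding levels were 11.42, 11.64 and 11.86 in V79, 10.96, 11.57 and 11.87 in V21, and 11.52, 11.68 and 11.90 in Mock. The V79_8x range lay above the other 3, narrowly so in the case of Mock. Against V21 ATF3 rose 1.47-fold (+0.55 ± 0.12, adjusted p = 0.00641). Against V79 it was at +0.42 ± 0.12 (adjusted p = 0.12) and against Mock at +0.34 ± 0.12 (adjusted p = 0.212), which did not pass. Without the 4 arrays, on which ATF3 read 10.96 to 11.52, it passed in each: +0.39 ± 0.08 against V79 (adjusted p = 0.00821), +0.35 ± 0.09 against V21 (adjusted p = 0.0246) and +0.30 ± 0.08 against Mock (adjusted p = 0.037). ATF3 has 4 features, and the others did not bear the call out: against V21 they gave -0.21, -0.58 and +0.30 from the brighter to the dimmer (adjusted p = 0.493, 0.571 and 0.0847). With only V79_8x and V21 in the fit the adjusted p of ATF3 was 0.06.

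DDIT3, which encodes CHOP, a factor of stress-induced cell death, had lowest, median and highest levels of 8.75, 8.87 and 9.06 in V79_8x, 7.94, 8.85 and 8.96 in V79, 8.67, 8.79 and 8.92 in V21, and 8.26, 8.82 and 9.04 in Mock. The medians lie close together, and the low ends of V79 and Mock are arrays that stood apart, V79 B and Mock D. The difference against V79 was +0.16 with all arrays (95% interval -0.12 to 0.45) and +0.01 without the 4 (-0.14 to 0.16). ATF5, a relative of ATF4 controlled in the same way at translation, was at -0.08 against V79. CEBPB and CEBPG, which encode C/EBP partners of ATF4, were at +0.09 and +0.04. None of these passed in any comparison.

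**Figure D2:**
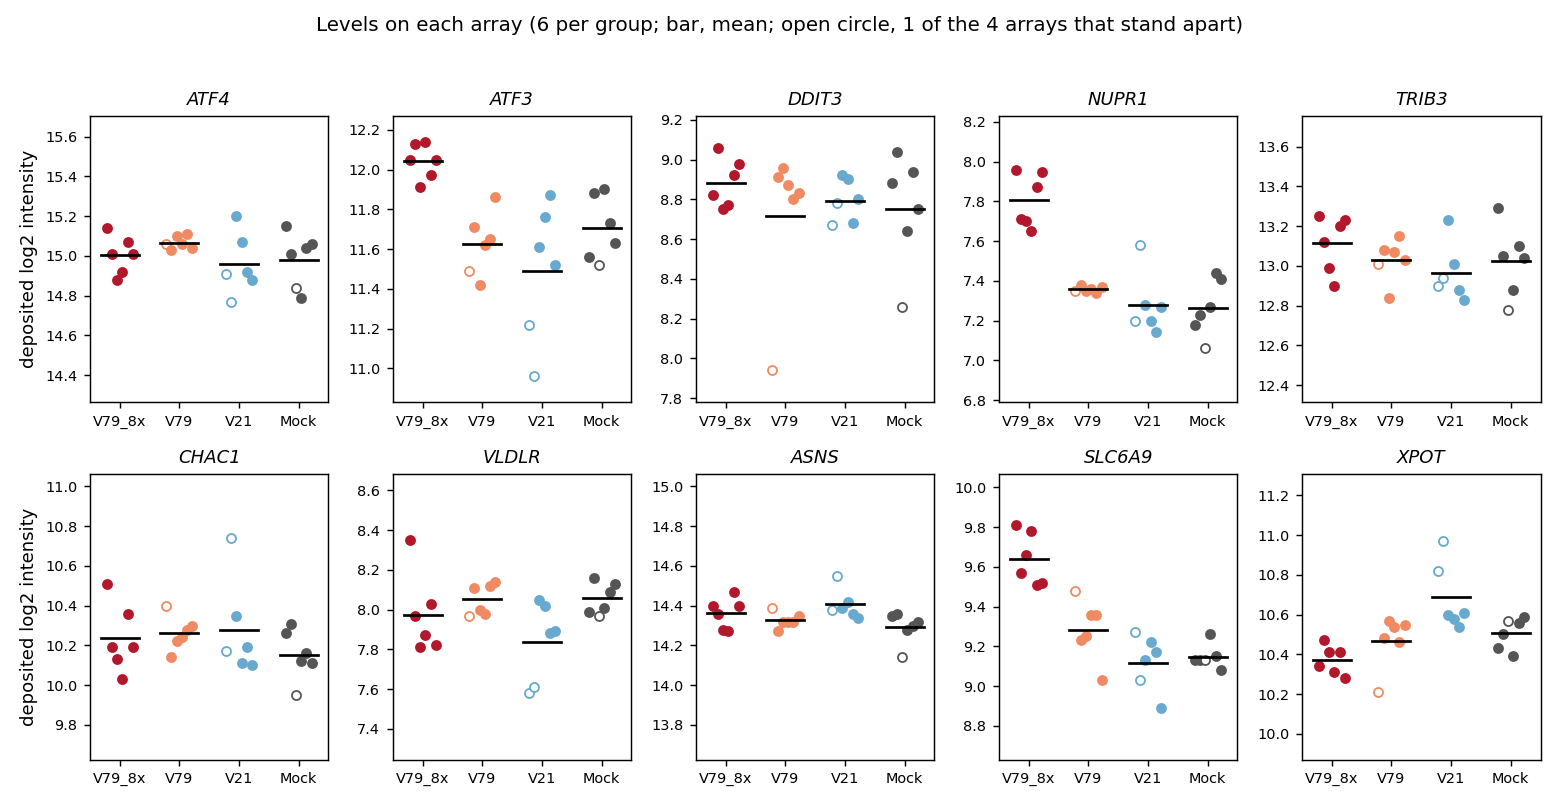
Deposited log2 intensity of 10 members on each of the 24 arrays, by group in the order V79_8x, V79, V21 and Mock; bars are group means, open circles mark V79 B, V21 B, V21 C and Mock D, and every panel spans the same range of the log2 scale. The V79_8x points of NUPR1, ATF3 and SLC6A9 lie above all other points, with ATF3 at 11.91 or more against 11.90 at most elsewhere, while the ATF4, TRIB3, CHAC1 and ASNS panels overlap between groups.

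Of the feedback and stress effectors, 0 of 7 tested members passed in any comparison. In V79_8x 0 had an unadjusted p under 0.05 against V79, 2 against V21 and 1 against Mock. Of all 15046 genes, 829, 2917 and 1331 had such a p in these comparisons. TRIB3, a pseudokinase that restrains ATF4, had lowest, median and highest levels of 12.90, 13.16 and 13.25 in V79_8x, 12.84, 13.05 and 13.15 in V79, 12.83, 12.92 and 13.23 in V21, and 12.78, 13.05 and 13.29 in Mock. Its difference against V79 was +0.09 (95% interval -0.09 to 0.26). TRIB3 was at +0.15 against V21 (adjusted p = 0.314) and +0.09 against Mock (adjusted p = 0.918). CHAC1, an enzyme that degrades glutathione and one of the strongest ATF4 targets known, had 10.03, 10.19 and 10.51 in V79_8x, 10.14, 10.26 and 10.40 in V79, 10.10, 10.18 and 10.74 in V21, and 9.95, 10.14 and 10.31 in Mock. Both genes overlapped between all groups. The CHAC1 difference against V79 was -0.03 (95% interval -0.23 to 0.17), and an induction of more than 0.17 on the log2 scale lies outside it. That bound holds for the bulk samples and for V79 only. CHAC1 was at -0.04 against V21 (adjusted p = 0.809) and +0.08 against Mock (adjusted p = 0.953).

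PPP1R15A, the phosphatase subunit GADD34 that ends the response by removing the phosphate from eIF2, was at +0.05 against V79, +0.17 against V21 and +0.16 against Mock, with SDs of 0.18 to 0.26 within groups. DDIT4 and SESN2, which both restrain mTORC1 signalling, had the widest differences of the group. DDIT4 was at +0.52 against V21 (adjusted p = 0.0862), where V21 B and V21 C read 9.57 and 9.06 and the 6 V79_8x arrays 10.25 to 10.49. Without the 4 arrays the DDIT4 difference was +0.26, and it did not pass. SESN2 was at +0.24 against V21 (adjusted p = 0.138) and +0.21 against Mock (adjusted p = 0.395). HERPUD1, a component of endoplasmic reticulum-associated degradation, was at +0.05 against V79, and VLDLR, a lipoprotein receptor, at -0.08. STC2, not tested, read 6.21 to 6.51 in V79_8x, 6.18 to 6.38 in V79, 6.05 to 6.45 in V21 and 6.16 to 6.52 in Mock.

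Among the 9 enzymes of amino acid and one-carbon metabolism, 0 passed in any comparison. This is close to the shares of all genes called in V79_8x: 1.15% against V79, 2.86% against V21 and 2.2% against Mock. Between the other groups at most 0.00665% were called. ASNS, asparagine synthetase, whose CARE element is shown above, had lowest, median and highest levels of 14.27, 14.38 and 14.47 in V79_8x, 14.27, 14.32 and 14.39 in V79, 14.34, 14.39 and 14.55 in V21, and 14.14, 14.31 and 14.36 in Mock. Its difference was +0.04 against V79 (95% interval -0.07 to 0.14), -0.04 against V21 (-0.15 to 0.06) and +0.07 against Mock (-0.03 to 0.18), among the narrowest intervals of the 38. The serine synthesis enzymes PHGDH, PSAT1 and PSPH were at -0.18, +0.02 and 0.00 against V79. The mitochondrial folate enzymes SHMT2 and MTHFD2 were at -0.11 and +0.11. ALDH18A1, which makes a precursor of proline, was at -0.04. The transsulfuration enzymes CTH and CBS were at +0.11 and -0.04. Over the 9 the median against V79 was 0.00, with 5 above and 4 below 0.

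SLC6A9 was the 1 of 5 transporters that passed. Its lowest, median and highest levels were 9.51, 9.62 and 9.81 in V79_8x, against 9.03, 9.31 and 9.48 in V79, 8.89, 9.15 and 9.27 in V21, and 9.08, 9.13 and 9.26 in Mock. All V79_8x arrays lay above all others. The rise was 1.28-fold against V79 (+0.36 ± 0.08, adjusted p = 0.0101), 1.44-fold against V21 (+0.52 ± 0.08, adjusted p = 5.72e-05) and 1.41-fold against Mock (+0.49 ± 0.08, adjusted p = 0.00013). Without the 4 arrays it was at +0.40 against V79, +0.54 against V21 and +0.49 against Mock and passed in each. SLC6A9 has a second, dim feature with a mean of 6.60, which gave -0.06 against V79 (adjusted p = 0.999), -0.03 against V21 and +0.01 against Mock, and with the mean of both features the calls were lost. The cystine transporter SLC7A11, a target of ATF4 and of NRF2, was at +0.16 against V79, and its V79 F array read 9.23 where the other V79 arrays had at most 8.08. The amino acid transporters SLC7A5, SLC7A1 and SLC3A2 were at +0.10, +0.02 and +0.08 against V79, and none passed in any comparison.

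Of the 8 genes of tRNA charging and export, XPOT passed in 1 comparison. It read 10.28, 10.38 and 10.47 at its lowest, median and highest in V79_8x, 10.21, 10.51 and 10.57 in V79, 10.54, 10.61 and 10.97 in V21, and 10.39, 10.53 and 10.59 in Mock. The V79_8x arrays all lay below the V21 arrays and overlapped those of V79 and Mock. XPOT fell in V79_8x against V21 by 0.32 on the log2 scale (SE 0.07, adjusted p = 0.0137). XPOT is known as a gene that ATF4 switches on. It was at -0.10 against V79 (adjusted p = 0.98) and -0.14 against Mock (adjusted p = 0.676). The high V21 values came in part from V21 B and V21 C (10.82 and 10.97), and without the 4 arrays the difference was -0.21 ± 0.05 (adjusted p = 0.0173). With only V79_8x and V21 in the fit XPOT did not pass (adjusted p = 0.0816). The synthetases AARS1, GARS1, WARS1, SARS1, EPRS1, MARS1 and NARS1 ranged from -0.15 (AARS1) to +0.09 (GARS1) against V79, and none passed in any comparison.

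Further genes of the pathway were fitted beside the 39. Of 24 tested further ATF4 targets, 1 rose against V79, 2 against V21 and 2 against Mock, and 0 fell. In the same comparisons 1.15%, 2.86% and 2.2% of all 15046 genes were called. GDF15, a secreted stress cytokine that is also a target of p53, had lowest, median and highest levels of 13.29, 13.38 and 13.54 in V79_8x, against 12.62, 12.77 and 12.87 in V79, 12.33, 12.64 and 12.95 in V21, and 12.14, 12.53 and 12.73 in Mock. The V79_8x arrays lay above all others. GDF15 rose 1.55-fold against V79 (+0.63 ± 0.10, adjusted p = 0.00048), 1.71-fold against V21 (+0.77, adjusted p = 2.06e-05) and 1.85-fold against Mock (+0.89, adjusted p = 2.52e-06). TNFRSF10B, a death receptor, rose against V21 (+0.37 ± 0.08, adjusted p = 0.00823), and JDP2, an AP-1 repressor, against Mock (+0.23 ± 0.06, adjusted p = 0.0486). With the 4 arrays left out 1 of the 24 rose against V79, 4 against V21 and 3 against Mock, and 0 fell. The shares of all genes called were then 1.82%, 3.08% and 3.97%. GDF15 was then at +0.60 against V79 (adjusted p = 9.74e-05), +0.76 against V21 (adjusted p = 8.96e-06) and +0.81 against Mock (adjusted p = 1.15e-06). TNFRSF10B and JDP2 passed against both V21 (+0.28, adjusted p = 0.0248, and +0.21, adjusted p = 0.0149) and Mock (+0.23, adjusted p = 0.0422, and +0.23, adjusted p = 0.00328). The fourth gene against V21 was SQSTM1, which encodes the autophagy receptor p62 (+0.32, adjusted p = 0.0433).

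Of 17 chaperones and other genes of the unfolded protein response of the endoplasmic reticulum, 0 passed in any comparison of V79_8x, with or without the 4 arrays. With all arrays 0, 4 and 0 had an unadjusted p under 0.05 against V79, V21 and Mock. The counts over all 15046 genes were 829, 2917 and 1331. The medians of this list were +0.01, -0.03 and +0.04. The smallest p-values against V79 belonged to ERN1, the sensor IRE1, at -0.10 and DNAJB9, a chaperone, at +0.15 (adjusted p = 0.98 for both). Interferon-stimulated genes, fitted for context, rose far more in the same V79_8x arrays: all 5 tested passed against each group, with and without the 4 arrays, with medians of +3.51, +3.84 and +3.79 against V79, V21 and Mock over all arrays. IFIT1 was at +4.99 against V79 and ISG15 at +3.51. Whether the members' changes have to do with this interferon response was not tested.

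**Figure D3:**
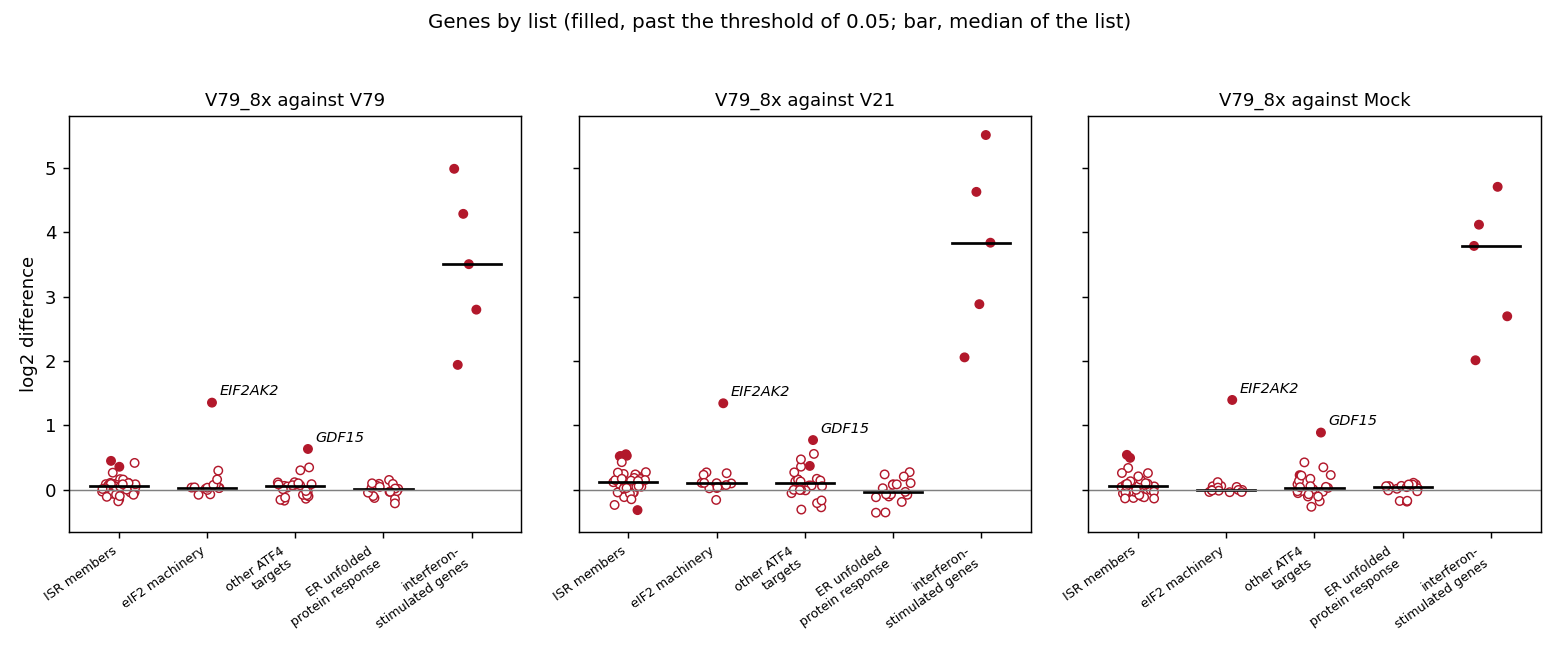
Log2 difference of V79_8x against V79, V21 and Mock for each tested gene of 5 lists: the integrated stress response (ISR) members, the eIF2 machinery, other ATF4 targets, the unfolded protein response of the endoplasmic reticulum and interferon-stimulated genes; filled points passed the threshold and bars are list medians. The interferon-stimulated genes lie at about +1.94 to +5.51, EIF2AK2 at +1.34 to +1.40 and GDF15 at +0.63 to +0.89, while the medians of the other 4 lists stay between -0.03 and +0.13.

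Between the groups without the 8x mark no member passed in limma's fit. Against V21, 0 of 38 members were called in V79, with 0.00665% of all genes called, and 3 members had an unadjusted p under 0.05. The smallest belonged to XPOT (-0.22 ± 0.07, adjusted p = 0.832). Against Mock, 0 members were called in V79, also with 0.00665% of all genes called, and 0 had an unadjusted p under 0.05. The smallest belonged to SLC6A9 (+0.14 ± 0.08, adjusted p = 1). In V21 against Mock 0 members were called, with 0% of all genes called, and 5 members had an unadjusted p under 0.05. The smallest was that of VLDLR (-0.22 ± 0.09, adjusted p = 0.782). Of all 15046 genes, 574, 406 and 486 had an unadjusted p under 0.05 in V79 against V21, V79 against Mock and V21 against Mock. VLDLR had lowest, median and highest levels of 7.58, 7.89 and 8.05 in V21 and 7.97, 8.05 and 8.16 in Mock, and its 2 lowest V21 arrays were V21 B and V21 C. Without the 4 arrays the counts of members were again 0 in each, with 0% of all genes called in V79 against V21, 0.00665% in V79 against Mock and 0% in V21 against Mock. A p that misses the threshold does not show that the groups were alike. The 95% intervals of the members in V79 against V21 reached -0.37 (XPOT) at the low end and +0.66 (SLC7A11) at the high end.

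Members also moved between arrays of the same group. On V79 B 12 members lay more than 0.3 below the rest of the group and 1 above, and on V21 B 19 below and 3 above. On V21 C 13 lay below and 5 above, and on Mock D 11 below and 1 above. These were 34.2%, 57.9%, 47.4% and 31.6% of the members. Of all genes, 41.8%, 40.2%, 46.8% and 40.0% lay as far out on the same arrays. The members' share was thus below that of all genes on V79 B and Mock D, and clearly above it only on V21 B. Members low on several of these arrays were DDIT3, DDIT4, CTH, SLC3A2 and GARS1. DDIT4 read 9.57, 9.57, 9.06 and 9.69 on V79 B, V21 B, V21 C and Mock D, and 9.83 to 10.49 on the other 20 arrays. GARS1, the glycine tRNA synthetase, read 9.86, 9.99 and 9.19 on V79 B, V21 B and V21 C, and its SD of 0.60 in V21 was the largest of any member in any group. WARS1 moved the other way: it read 12.02 on V79 B, 12.15 on V21 B and 12.11 on Mock D, while no other array was above 11.77. V21 C, in contrast, had the lowest WARS1 value, 11.24. The same 3 arrays were above all 21 others in 754 of the 15046 genes (5.01%), 2 of them members, WARS1 and AARS1. The remaining V21 arrays also spread, with 10 members more than 0.3 above the group on V21 E. These were 26.3% of the members, where 21.1% of all genes lay more than 0.3 from the group in either direction.

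**Figure D4:**
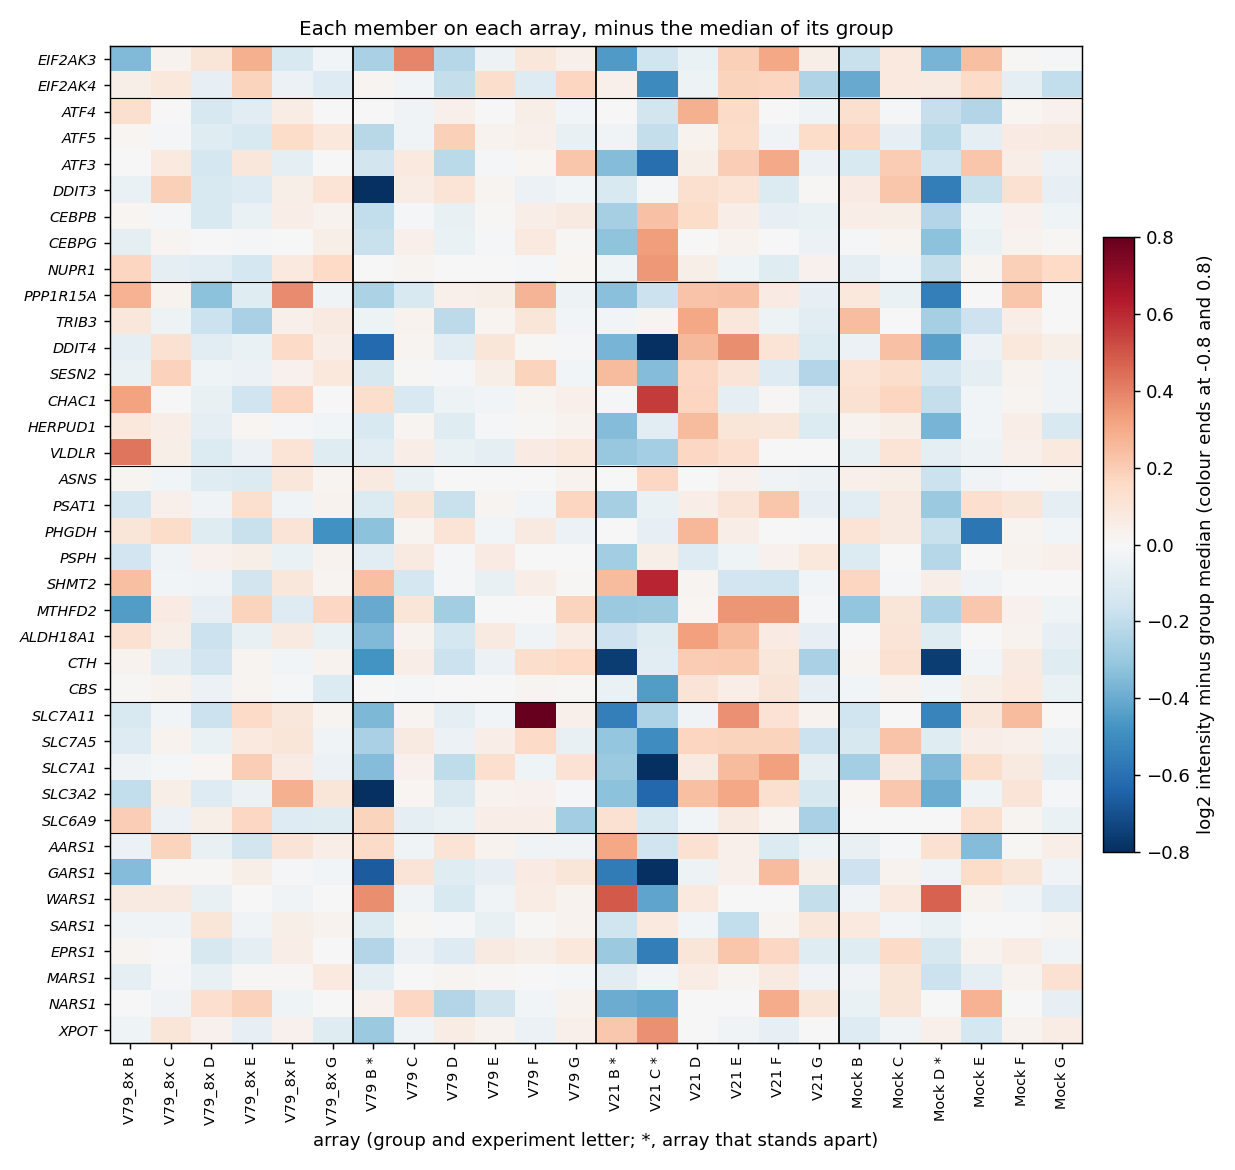
Each of the 38 tested members (rows, by role) on each of the 24 arrays (columns, by group), as log2 intensity minus the median of its group, with red above and blue below and colours ending at -0.8 and 0.8; asterisks mark V79 B, V21 B, V21 C and Mock D. Blue cells gather in the marked columns, such as DDIT3 and SLC3A2 on V79 B, GARS1 and SLC7A1 on V21 C and CTH on V21 B and Mock D, while WARS1 is red on V79 B, V21 B and Mock D.

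The arrays allow a check of technical spread within an array, since 5 members have 10 features each. For ATF5, CEBPB, DDIT4, MTHFD2 and NARS1 the median SD between the 10 features on an array was 0.03 to 0.06, after each feature's own mean was taken out. The SD between arrays of a group for the same genes was 0.12 (ATF5, CEBPB), 0.15 (NARS1), 0.22 (MTHFD2) and 0.28 (DDIT4), in each case larger. This second SD includes V79 B, V21 B, V21 C and Mock D. It can also hold technical differences between arrays, which the features of a single array do not show. Of the remaining members 27 have 1 feature and 6 have 2. The calls of NUPR1 and XPOT rest on a single feature each.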

How the data were processed

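The authors' deposited table of log2 intensities was used, with 62976 features on each of 24 1-colour Agilent arrays (6 per group). Per the labels, 100 ng of RNA was labelled with Cy3. No label or header names the background correction, normalisation or log base. The array names start with IntNorm and have V80 in place of the V79 of the titles. The sorted values of any pair of arrays differed by at most 0.01, so a common shift of most genes cannot show in these values.

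Features were named from the platform annotation, updated through RefSeq (37051 features with 1 gene, 25925 with none). The 4 groups entered 1 limma 3.58.1 fit (lmFit and eBayes, R 4.3.3) with no covariates, with two-sided p-values and Benjamini-Hochberg adjustment over 15046 genes. The procedure was tested on simulated data. The ± after a level is the SD and after a difference the SE. The number of arrays limits the precision, with a median SE of 0.0925 over the 38 members tested. V79_8x and Mock arrays of the same experiment letter deviated from their group means together (r of 0.182 to 0.57 in all 6 pairs). The labels do not state such a pairing, and arrays of different letters were not compared. In these groups alone the order of letters is also the order of samples in the series. Letter and order can thus not be told apart there. The split of PHOX2A followed the order of samples in all 4 groups. Other pairs of groups did not deviate together by letter throughout. Members, lists, tests and alternatives were chosen with earlier results of these data known. Genes given with full values are the called members, the smallest p where none passed, and ATF4, ATF3, DDIT3, TRIB3, CHAC1 and ASNS. Fitting each feature alone was added later.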

Additional observations from a re-analysis of the deposited data

Results flagged for a closer look

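In 156 sets of 6 arrays (39 genes in 4 groups), 19 had a lowest or highest array whose gap to the next exceeded the 95% critical share of the whole range in Dixon's test. Chance flags about 1 set in 20. Of the 19, 16 were on V79 B, V21 C or Mock D, arrays that stood apart over all genes. On V79 B, DDIT3 read 7.94, DDIT4 9.57, PHGDH 12.03, SLC3A2 9.62, GARS1 9.86, WARS1 12.02, MARS1 13.00 and XPOT 10.21. On V21 C, NUPR1 was high at 7.58 and CBS low at 14.19. On Mock D, CEBPB read 11.65, CEBPG 11.72, PPP1R15A 7.74, ASNS 14.14, CTH 8.48 and WARS1 12.11. The remaining 3 were GARS1 on V79_8x B (10.22), SLC7A11 on V79 F (9.23) and PHGDH on V21 D (12.52). Only the GARS1 value concerns V79_8x, and the called members ATF3 and SLC6A9 had none.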

How the results depend on the processing

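The alternatives left out each array in turn, the 4 arrays that stood apart, the filter on dim genes or the dimmest 50%, took the mean of all features, used array weights, another variance model, the experiment letter as a block, or only the 2 groups compared. NUPR1 passed against all 3 groups wherever it was tested (adjusted p of at most 0.00406). Leaving out 1 array ended no call of NUPR1, SLC6A9, ATF3 or XPOT, and it added ATF3 against V79 without V21 C (adjusted p = 0.0215, with 0.000609 to 0.992 over the alternatives) and DDIT4 against V21 without V21 D or V21 E. Members called against V79 numbered 1 with the dimmest 50% left out, which removes NUPR1 by its level. They numbered 1 with the mean of features, which loses SLC6A9, and 2 to 3 with 1 array left out. The calls over all genes were then 123 of 10031, 184 of 15047 and 147 to 212 of 15046. Against V21 the members called numbered 2 with the mean of features (NUPR1, XPOT) and 2 with only these groups in the fit (NUPR1, SLC6A9). They numbered 4 to 5 with 1 array left out. Over all genes the calls were 419 of 15047, 243 of 15046 and 319 to 728 of 15046. Against Mock the members called numbered 1 with the dimmest 50% left out, 1 with the mean of features and 5 with array weights (ATF3, NUPR1, SESN2, SLC6A9, XPOT). Calls over all genes were 269 of 10031, 311 of 15047 and 1047 of 15046, against 331 of 15046 in the main fit. The higher count of members with array weights thus came with more calls over all genes. Between the other groups 0 members passed with any 1 array left out. Fitted alone, other features of ATF3 had the opposite sign against V21 (-0.21 and -0.58, neither past the threshold). The second feature of SLC6A9 had the opposite sign against V79 (-0.06, not past the threshold) and V21 (-0.027). The cause was not tested. With the experiment letter as a replicate block the same members passed: 2 against V79, 4 against V21 and 2 against Mock, and no other call of a member changed. Over all 15046 genes 185, 538 and 349 were called with this block. In the other 5 pairs of groups, arrays of the same letter did not deviate together throughout (r from -0.658 to 0.766). The split of PHOX2A and SEL1L fell on letters B and C in V79, F and G in V21, and D and E in V79_8x and Mock. A block by letter therefore cannot take that split out. No background or detection values entered, which limits the dim genes most.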
